A study of Mus musculus with 12 samples.

Results

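The 10 genes described here encode the TGF-beta ligands (Tgfb1, Tgfb2 and Tgfb3), their receptors (Tgfbr1, Tgfbr2 and Tgfbr3) and the latent TGF-beta binding proteins (Ltbp1, Ltbp2, Ltbp3 and Ltbp4). They were taken by gene symbol from the 36186 genes of the deposited count table, and each symbol was listed there 1 time. RNA-seq had been performed on whole kidneys of mouse embryos at E18.5, with 3 libraries for each of 4 genotypes. Wild type kidneys (Wt) carried no Hox mutation. AkCh kidneys were homozygous mutant at the Hoxa genes and heterozygous at the Hoxc genes, written Hoxa9,10,11-/- HoxC9,10,11+/- in the labels. AhCk kidneys had the opposite arrangement, Hoxa9,10,11+/- with HoxC9,10,11-/-. AkCk kidneys were homozygous mutant at both clusters, with Hoxa9,10,11-/- combined with HoxC9,10,11-/-. All 4 groups were on a mixed background, and the labels name no transgene or treatment. The mutant alleles are germline frameshifts made by small deletions, so transcripts of the mutated genes can persist. The labels give the AkCk kidneys as Hoxa11-/-, whereas the study describes sequenced mutants that kept a wild type copy of Hoxa11, since full loss leaves no kidney at this age. Which AkCk library carries which Hoxa11 alleles is not given, so the AkCk kidneys were kept as 1 group.

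TGF-beta is secreted in a latent form. The propeptide of each ligand stays wrapped around the mature dimer, and a latent TGF-beta binding protein tethers this complex to fibrillin and fibronectin in the extracellular matrix until integrins or proteases release it. The free ligand brings together the serine/threonine kinase receptors TGFBR2 and TGFBR1, which phosphorylate SMAD2 and SMAD3, while TGFBR3 (betaglycan) is a co-receptor that presents ligand, TGF-beta 2 in particular. In the developing kidney the pathway is known for its part in ureteric branching, in the stroma and in the deposition of matrix.

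The 12 libraries held 28616877 to 47067903 counts on genes, with a median of 39328488. CPM, used here as the measure of level, is a gene's count scaled to a common library size after TMM adjustment, and fold changes are on the log2 scale with their standard error (SE). Groups of 3 libraries were compared with edgeR, with p-values adjusted over all genes tested and a threshold of 0.05. The p-values weigh the difference between groups against the spread between these libraries, which is estimated in part from other genes. Libraries are named by group and by the number in their label. By their labels the AhCk libraries belong to another sequencing run than the remaining 9, so genotype and run cannot be told apart for AhCk. Of the targeted genes, Hoxa10 had 100 to 112 CPM in AkCk and 125 to 165 CPM in Wt, and Hoxc10 had 29.1 to 37.8 CPM in AkCk and 50.2 to 66.9 CPM in Wt. These 2 of the 6 targeted genes passed the test as lower in AkCk. Hoxa9 (23.96 to 26.5 CPM against 24.3 to 26.4) and Hoxa11 (37.1 to 52.9 CPM against 44.2 to 59.7) overlapped with Wt. Hoxc9 (10.4 to 11.1 CPM against 11.4 to 15.6) and Hoxc11 (0.892 to 1.24 CPM against 1.56 to 1.83) lay below Wt but did not pass. Because frameshift transcripts can persist, these levels check the labels only weakly. Xist stood at 72.6 and 60.1 CPM in AkCk_27 and AkCk_29 and at 190, 253 and 336 CPM in AkCh_31, AkCh_33 and AhCk_110. It stood at 0.138 CPM or less in the other 7 libraries, so sex was unequal between the groups. AkCh_20 stood apart from the rest, with the fewest counts of all libraries and a level of the podocyte marker Podxl of 287 CPM against 574 to 904 CPM in the other 11. In whole-kidney RNA, fewer cells of a type and less RNA per cell cannot be told apart.

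In Wt kidneys the latent binders Ltbp4, Ltbp1 and Ltbp3 and the signalling receptors Tgfbr1 and Tgfbr2 were the most abundant of the 10 genes, ahead of the ligands, and the binder Ltbp2 was the lowest. Compared per kb of transcript, Ltbp4 had 35.1 ± 0.549 CPM per kb (SD, n = 3) and Ltbp1 31.6 ± 4.38 CPM per kb. Tgfbr1 followed at 26.4 ± 1.22, Tgfbr2 at 18.8 ± 0.332 and Ltbp3 at 17.4 ± 0.244 CPM per kb. The ranges of Ltbp4 and Ltbp1 overlapped, as did those of Ltbp1 and Tgfbr1, and no other neighbours in the Wt order did. Tgfb1 was the highest ligand at 15.6 ± 1.52 CPM per kb, ahead of Tgfb3 at 9.0 ± 0.0958 and Tgfb2 at 4.66 ± 0.564 CPM per kb. The co-receptor Tgfbr3 lay between Tgfb3 and Tgfb2 at 6.46 ± 0.355 CPM per kb. Ltbp2 had 0.129 ± 0.0653 CPM per kb, which rests on 24.5 to 52 expected counts per Wt library.

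The order of the AkCk kidneys differed at a few places. Ltbp4 was highest again, at 55.5 ± 10.0 CPM per kb, and no longer overlapped its neighbour. Ltbp1, at 27.8 ± 1.67 CPM per kb, now lay just below Tgfbr1, at 29.4 ± 2.49 CPM per kb, with overlapping ranges. Tgfbr3, at 11.2 ± 2.01 CPM per kb, passed Tgfb3, at 10.5 ± 0.269 CPM per kb, with ranges that overlapped as well. Summed over each family, the levels per kb were 84.3 ± 4.14 in Wt and 107 ± 11.6 in AkCk for the binders. They were 51.6 ± 1.80 and 64.3 ± 1.83 for the receptors and 29.2 ± 2.09 and 34.1 ± 1.74 for the ligands. These sums were not tested. Within the binders, Ltbp4 made up 41.8% of the summed level in Wt and 51.9% in AkCk, and Ltbp1 37.4% and 26.4%. Ltbp2 made up 0.156% and 1.04%. Within the ligands the makeup hardly moved, with Tgfb1 at 53.2% in Wt and 54.5% in AkCk.

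**Figure D1:**
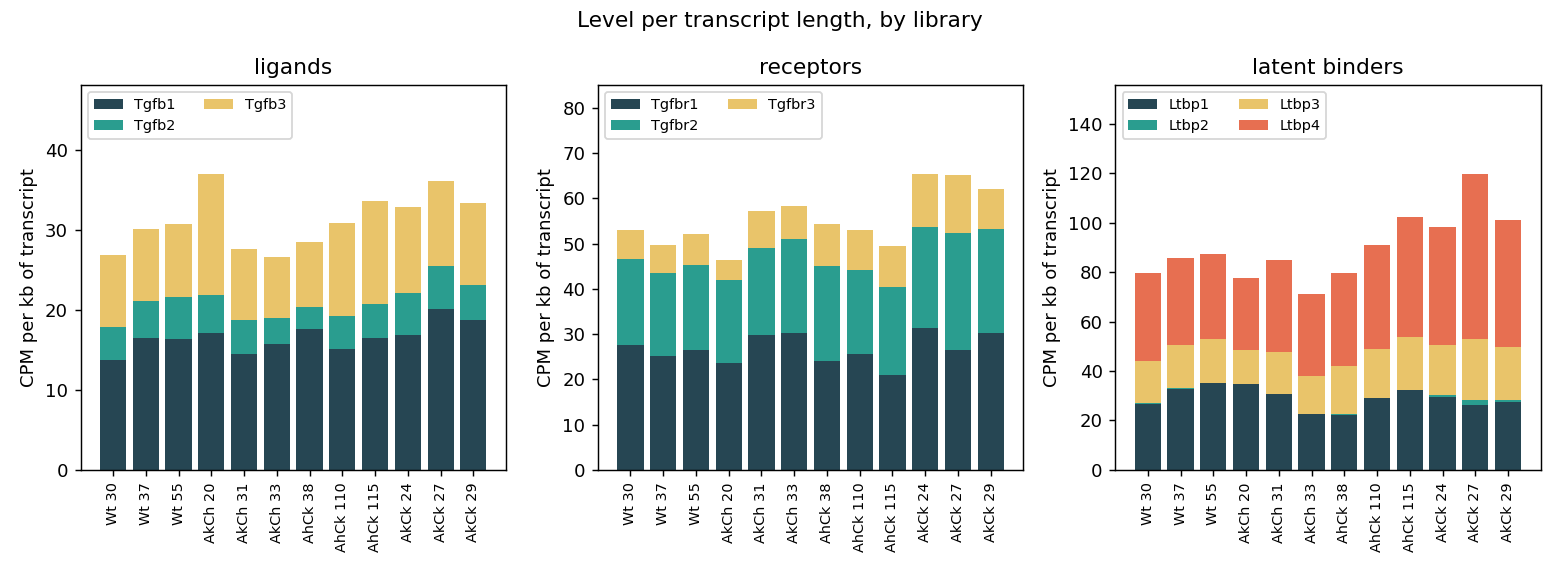
Stacked bars give the level of each ligand, receptor and latent binder in CPM per kb of transcript, with 1 bar for each of the 12 libraries. The AkCk bars of the receptors stand at 62.1 to 65.4 CPM per kb against 49.6 to 53.1 in Wt, and Ltbp4 makes up 51.9% of the AkCk binder bars on average.

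The comparison of AkCk with Wt sets kidneys with mutant Hox9 to Hox11 genes in both clusters beside kidneys with none. Of the 10 genes, 5 rose and none fell, where 13.7% of the 15839 genes tested passed the threshold, 6.31% as higher and 7.4% as lower. Ltbp2, Ltbp4 and Ltbp3 rose among the binders, Tgfbr3 and Tgfbr2 among the receptors, and no ligand passed the test. The 3 AkCk libraries lay above the 3 Wt libraries in 7 of the 10 genes, where this held for 17.3% of all genes. The median log2 fold change of the 10 genes was 0.29, against -0.01 over all genes tested. AkCk and Wt share a sequencing run but not their sex, since Xist was high in AkCk_27 and AkCk_29 and in no Wt library. The count of 5 moved with the libraries and settings used. It was 1 without Wt_37, 2 without Wt_55 and 3 without each AkCk library in turn. With the 9 libraries of the run in 1 fit it was 2. With Xist as a covariate over all 12 libraries it was 1 (Ltbp2), where the fit of all 12 without Xist gave 4. The share of all genes tested that passed moved too. It was 3.35% without Wt_37, 3.95% without Wt_55 and 4.95% to 10.2% without an AkCk library. With the 9 libraries it was 4.3%, with Xist 6.21% and with all 12 libraries 7.32%. The cause of these changes was not tested.

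**Figure D2:**
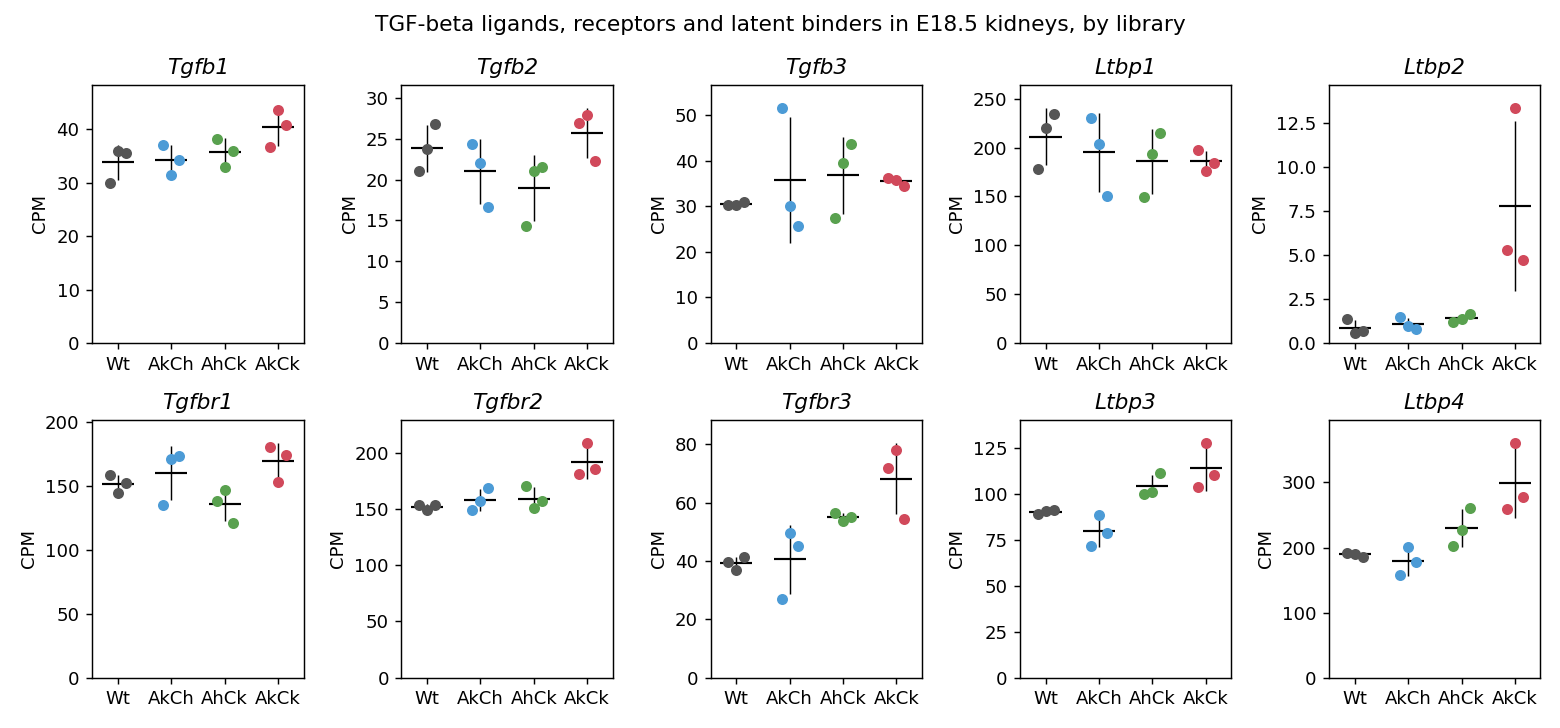
Each panel gives the level of 1 gene in CPM on a linear axis from 0, with 1 point per library, the group mean as a horizontal bar and the SD as a vertical line (n = 3). In Ltbp2, Ltbp3, Ltbp4, Tgfbr2 and Tgfbr3 each AkCk point lies above each Wt point, and in Tgfb3 the point of AkCh_20 at 51.4 CPM stands far above the other AkCh points.

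Ltbp2 (Entrez 16997, GRCm38.p6 chr12:84783212-84876558) encodes a binder of elastic fibres that, unlike its relatives, does not bind latent TGF-beta. Its level was 5.28 CPM in AkCk_24, 13.3 CPM in AkCk_27 and 4.73 CPM in AkCk_29. In Wt it was 1.38, 0.554 and 0.693 CPM in libraries 30, 37 and 55. The lowest AkCk kidney thus lay above the highest of Wt, and also above the 6 AkCh and AhCk kidneys, which had 0.818 to 1.66 CPM. The AkCk libraries carried 172 to 523 expected counts of Ltbp2. The log2 fold change was 3.16 (SE 0.51, 8.93-fold, edgeR adjusted p = 0.0102), which placed Ltbp2 at rank 29 of the 15839 genes by fold. AkCk_27 was the highest library, and without it the log2 fold change was 2.52 (edgeR adjusted p = 0.0185). The adjusted p stayed between 0.0103 and 0.0499 with each of the 6 libraries left out in turn.

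Ltbp4 (Entrez 108075, GRCm38.p6 chr7:27305140-27339720) encodes the binder that organises elastic fibres through fibulin-5 and carries latent TGF-beta 1. Its level was 258 CPM in AkCk_24, 360 CPM in AkCk_27 and 278 CPM in AkCk_29. The Wt libraries lay close together at 191, 191 and 186 CPM. All AkCk values were above all Wt values, and the spread in AkCk was wider than in Wt. The log2 fold change was 0.66 (SE 0.12, 1.58-fold, edgeR adjusted p = 0.0172). Without Wt_37 the adjusted p was 0.0679 and without Wt_55 it was 0.0712 (edgeR), with log2 fold changes of 0.67 and 0.65.

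Ltbp3 (Entrez 16998, GRCm38.p6 chr19:5740900-5758536) encodes a binder of latent TGF-beta known for its part in bone and tooth growth. Its level was 104, 128 and 111 CPM in AkCk_24, 27 and 29 and 89.0, 91.0 and 91.3 CPM in Wt_30, 37 and 55. The groups did not overlap. The log2 fold change was 0.34 (SE 0.09, edgeR adjusted p = 0.0428), and the call was lost with any of the 6 libraries left out (edgeR adjusted p = 0.0534 to 0.126). Of the 5 calls it was the most easily lost in this way.

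Ltbp1 (Entrez 268977, GRCm38.p6 chr17:75005480-75392512), which encodes the founding member of the family, was the 1 gene of the 10 with a log2 fold change below 0. Its level was 198, 176 and 184 CPM in AkCk and 178, 220 and 235 CPM in Wt. The groups overlapped, since Wt_30 lay among the AkCk values. The log2 fold change was -0.18 (SE 0.11, edgeR adjusted p = 0.282). Without Wt_30 it was -0.29 and passed the test (edgeR adjusted p = 0.0436), so this value rests on 1 library.

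Tgfbr3 (Entrez 21814, GRCm38.p6 chr5:107106567-107289629), the co-receptor betaglycan, rose most among the receptors. Its level was 71.8, 78.2 and 54.6 CPM in AkCk_24, 27 and 29 and 39.7, 36.97 and 41.2 CPM in Wt. Each AkCk kidney was above each Wt kidney, with AkCk_29 the nearest. The log2 fold change was 0.79 (SE 0.13, 1.73-fold, edgeR adjusted p = 0.0108), and of the 6 libraries left out in turn, the call was lost without Wt_37 (0.76, edgeR adjusted p = 0.0534). It was also lost in the fit of 9 libraries and with Xist as a covariate over all 12 (edgeR adjusted p = 0.0843 and 0.0887).

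Tgfbr2 (Entrez 21813, GRCm38.p6 chr9:116087695-116175363), the receptor that binds the ligand first, rose by less. Its level was 181, 208 and 186 CPM in AkCk_24, 27 and 29 and 154, 149 and 154 CPM in Wt_30, 37 and 55. The groups did not overlap. The log2 fold change was 0.33 (SE 0.08, edgeR adjusted p = 0.0315). The call held without Wt_30 but was lost without any of the other 5 libraries (edgeR adjusted p = 0.0563 to 0.118). Tgfbr1 (Entrez 21812, GRCm38.p6 chr4:47353222-47414926), the signalling partner of TGFBR2, had 180, 153 and 174 CPM in AkCk and 159, 145 and 152 CPM in Wt. These values overlapped, and the log2 fold change of 0.15 (SE 0.08, edgeR adjusted p = 0.241) did not pass.

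The ligands moved little. Tgfb1 (Entrez 21803, GRCm38.p6 chr7:25687002-25705077), the ligand most widely expressed in the body, had 36.8, 43.7 and 40.9 CPM in AkCk and 30.02, 35.9 and 35.6 CPM in Wt. The AkCk values were all higher, with less than 1 CPM between the nearest libraries, and the log2 fold change was 0.26 (SE 0.10, edgeR adjusted p = 0.136). Tgfb3 (Entrez 21809, GRCm38.p6 chr12:86056743-86079041), a ligand known from palate and lung development, had 34.5 to 36.2 CPM in AkCk and 30.2 to 30.8 CPM in Wt. Both groups were tight and did not overlap, but the log2 fold change of 0.22 (SE 0.07, edgeR adjusted p = 0.0789) missed the threshold. Tgfb2 (Entrez 21808, GRCm38.p6 chr1:186622787-186709697), the ligand that depends most on betaglycan, overlapped between the groups. It had 22.3 to 27.9 CPM in AkCk and 21.0 to 26.8 CPM in Wt, a log2 fold change of 0.11 (SE 0.13, edgeR adjusted p = 0.590).

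**Figure D3:**
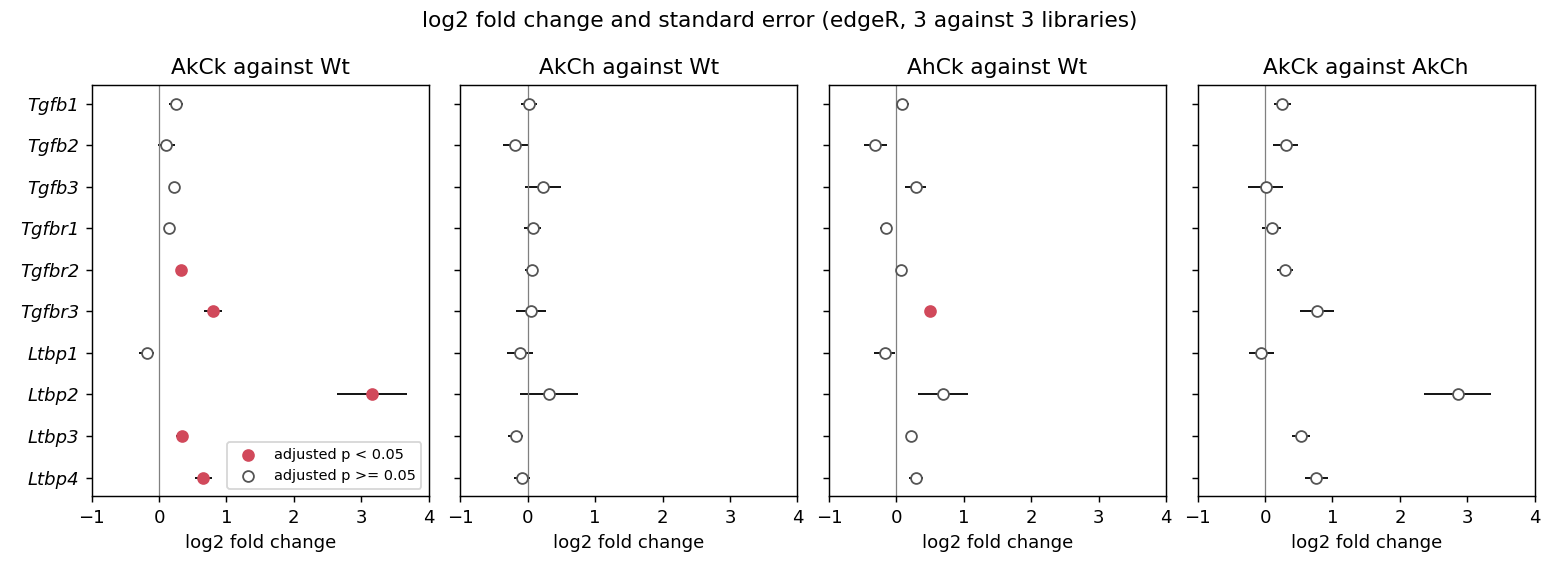
Points give the log2 fold change of the 10 genes in 4 comparisons of 3 against 3 libraries, with the SE as a bar and filled points for an edgeR adjusted p below 0.05. Filled points appear for 5 genes in AkCk against Wt and for Tgfbr3 in AhCk against Wt, and Ltbp2 stands at 3.16 and 2.86 in the comparisons of AkCk with Wt and with AkCh.

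Among the AkCk kidneys, AkCk_27 had the highest level of 7 of the 10 genes, namely Tgfb1, Tgfb2, Tgfbr2, Tgfbr3, Ltbp2, Ltbp3 and Ltbp4. This library also had the lowest summed level of the cap mesenchyme markers Six2, Cited1, Eya1 and Gdnf, at 37.8 CPM. AkCk_29, with 135 CPM of these markers, was the lowest of the 3 for Tgfb2, Tgfb3, Tgfbr3 and Ltbp2. AkCk_24, between them with 64.5 CPM, was the lowest for Tgfb1, Tgfbr2, Ltbp3 and Ltbp4, and AkCk_27 for Tgfbr1 and Ltbp1. Sex differed among the 3 kidneys too, with Xist at 72.6 CPM in AkCk_27, 60.1 CPM in AkCk_29 and 0.104 CPM in AkCk_24. With 3 kidneys these are values side by side, not a relation that could be tested.

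The makeup of the AkCk kidneys also differed from Wt by marker genes of cell types, and the part of these differences in the values above was not tested. All 4 cap mesenchyme markers were lower in every AkCk library than in every Wt library, and 2 of 4 passed the test. Their summed level was 37.8 to 135 CPM in AkCk and 170 to 247 CPM in Wt. Of all 15839 genes tested, 3291 were likewise lower in every AkCk library than in every Wt library. All 4 ureteric bud tip markers (Ret, Wnt11, Etv4 and Etv5) fell, from 201 to 244 CPM in Wt to 92.6 to 149 CPM in AkCk. Of 6 stroma markers, 3 rose (Pdgfra, Foxd1 and Ntn1), and the summed level was 963 to 1114 CPM in AkCk and 770 to 878 CPM in Wt. The stroma markers Meis1 and Tcf21 went the other way, with log2 fold changes of -0.14 and -0.06, and overlapped with Wt. Pdgfrb, at 0.27, did not pass. For smooth muscle 2 of 4 rose (612 to 679 CPM against 423 to 492 CPM). For macrophages 3 of 5 rose (95.2 to 120 CPM against 55.1 to 62.5 CPM). The podocyte marker Podxl rose (703 to 904 CPM against 574 to 588 CPM), and the podocyte marker Nphs1 had 68.6 to 114 CPM in AkCk and 56.2 to 68.7 CPM in Wt and did not pass. None of 4 endothelial markers passed (645 to 698 CPM against 551 to 594 CPM). The summed level of the proximal tubule markers Lrp2, Slc34a1 and Hnf4a overlapped between AkCk, at 1625 to 2292 CPM, and Wt, at 822 to 2112 CPM. None of these 3 passed.

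Markers of neighbouring tissue were low but not equal between the groups. Of 4 skeletal muscle markers 1 rose (Myh3), and their summed level was 4.31 to 9.56 CPM in AkCk and 1.80 to 4.21 CPM in Wt, with Ckm at 0 in Wt_30 and Wt_37. Of 4 liver markers 2 rose, with sums of 8.79 to 26.3 CPM in AkCk and 3.87 to 5.20 CPM in Wt. The part of these differences in the values above was not tested. The adrenal markers Star, Cyp11a1, Cyp11b1 and Cyp17a1 summed to 3.54 to 6.82 CPM in AkCk and to 3.82 to 4.95 CPM in Wt, and 2 of these 4 were high enough to be tested.

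In AkCh kidneys, where a functional Hoxc allele remains, none of the 10 genes passed the test. edgeR called 0 of 15789 genes here, with 2.28% at an unadjusted p below 0.05, and DESeq2 called 18. The log2 fold changes of the 10 genes against Wt ran from -0.18 for Tgfb2 and Ltbp3 to 0.31 for Ltbp2, each with an edgeR adjusted p of 1.00. Ltbp4, raised in AkCk, had 157, 201 and 178 CPM in AkCh_20, 31 and 33, a log2 fold change of -0.08 (SE 0.12). Tgfbr3 had 27.2, 49.5 and 45.0 CPM, a log2 fold change of 0.05 (SE 0.22) in which AkCh_20 lay below and the others above all Wt libraries. Ltbp2 had 1.47, 0.989 and 0.818 CPM, within or just above the Wt range. Ltbp3 was the 1 gene of the 10 whose groups did not overlap, at 71.7, 88.7 and 79.0 CPM and below Wt, where 4.77% of all genes lay apart in that direction.

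AkCh_20 was either the highest or the lowest AkCh library for all 10 genes, the highest for Tgfb1, Tgfb2, Tgfb3, Ltbp1 and Ltbp2 and the lowest for Tgfbr1, Tgfbr2, Tgfbr3, Ltbp3 and Ltbp4. In groups of 3 this is not particular to AkCh_20, since Wt_30, AhCk_38 and AkCk_27 were each an extreme of their group for 9 of the 10 genes. Tgfb3 stood at 51.4 CPM there and at 29.98 and 25.7 CPM in AkCh_31 and 33. Without AkCh_20 the log2 fold change of Tgfb3 against Wt turned from 0.23 to -0.13, that of Tgfbr3 went from 0.05 to 0.26 and that of Ltbp1 went from -0.11 to -0.25, and none of the 10 genes passed the test.

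The AhCk kidneys keep a functional Hoxa allele. Against Wt, 1 of the 10 genes passed the test, where edgeR called 2.36% of 15902 genes and 0.836% as higher. This was Tgfbr3, with 56.4, 53.7 and 54.96 CPM in AhCk_38, AhCk_110 and AhCk_115. The 3 AhCk libraries lay close together and above all Wt libraries, and the log2 fold change was 0.50 (SE 0.07, 1.41-fold, edgeR adjusted p = 0.0196). The call is not firm. It was lost without AhCk_110, AhCk_115, Wt_37 or Wt_55 (edgeR adjusted p = 0.0715 to 0.129), and correcting each library for the GC content and length of exons lowered the log2 fold change to 0.37 (edgeR adjusted p = 0.538).

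Ltbp4 and Ltbp3 were also higher in each AhCk library than in each Wt library, as were 11.4% of all genes, but did not pass. Ltbp4 had 203, 227 and 261 CPM (log2 fold change 0.29, SE 0.10, edgeR adjusted p = 0.159). Ltbp3 had 100, 101 and 111 CPM (log2 fold change 0.22, SE 0.07, edgeR adjusted p = 0.134). With the same correction these became 0.07 and -0.0003. The transcripts of Ltbp4 and Ltbp3 hold 62.2% and 61.5% GC. Tgfbr2, at 49.6% GC, went from 0.08 to -0.11 with this correction. Tgfb1, at 62.5% GC, stayed between 0.03 and 0.10 under all 8 alternatives run for AhCk. The part of GC content in these changes was not tested. Ltbp2, at 1.17 to 1.66 CPM, overlapped with Wt. The other members overlapped with Wt as well, with log2 fold changes from -0.32 for Tgfb2 to 0.28 for Tgfb3.

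AkCk kidneys were then compared directly with AkCh kidneys, which come from the same run. By the labels the groups differ at the Hoxc alleles alone, but by the study's description of the AkCk kidneys, given above, they can differ at Hoxa11 too. None of the 10 genes passed by edgeR, which called 0 of 15764 genes, with 11.3% at an unadjusted p below 0.05. DESeq2 called 487 genes, 3 of the 10 among them (Ltbp2, Ltbp4 and Ltbp3), and edgeR called the same 3 when all 12 libraries were in the fit. The groups nevertheless did not overlap in 5 of the 10 genes, all higher in AkCk, where 9.95% of all genes lay apart in that direction. These were Ltbp2, Ltbp4, Ltbp3, Tgfbr3 and Tgfbr2, the same genes as those called against Wt. Ltbp2 had a log2 fold change of 2.86 (SE 0.50, edgeR adjusted p = 0.158) and Ltbp4 had 0.76 (SE 0.17, edgeR adjusted p = 0.224). Tgfbr3 stood at 0.77 (SE 0.25), Ltbp3 at 0.54 (SE 0.14) and Tgfbr2 at 0.30 (SE 0.11), with edgeR adjusted p of 0.360, 0.258 and 0.422. Without AkCh_20, Ltbp2 passed with a log2 fold change of 3.12 (edgeR adjusted p = 0.0330), as 687 genes did in all, while Ltbp4 reached 0.0599 and Ltbp3 0.0681 (edgeR adjusted p). Both comparisons share the AkCk libraries, so the values against AkCh do not add independent replicates of AkCk.

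The other genes of the pathway were divided by role, and each list was read by its counts beside the shares called among all genes in AkCk against Wt, given above. Of 14 genes of intracellular signalling, which include the SMADs and their inhibitors, 1 rose and none fell. Their median log2 fold change of -0.01 lies between members on either side of 0, of which 6 were above it. The 1 gene was Ski, a repressor of SMAD-driven transcription, with a log2 fold change of 0.27 (edgeR adjusted p = 0.0378), and the call was lost without any library other than Wt_30 (edgeR adjusted p = 0.0744 to 0.144). Of the genes below 0, Tgif1 at -0.36, Smad7 at -0.34 and Smurf1 at -0.18 were lower in each AkCk library than in each Wt library. They missed the threshold (edgeR adjusted p = 0.0698, 0.0512 and 0.0947). Of all 15839 genes tested, 3291 lay wholly below Wt in the same way, so these 3 of 14 are not a result about the list. The count of calls in this list was 0 without any library other than Wt_30, and without Wt_30 it was 1 higher and 2 lower. With library size only it was 0 higher and 3 lower. Over all genes tested, 1957 were called higher and 1429 lower without Wt_30, and 742 higher and 1649 lower with library size only. Of 4 co-receptors and related receptors 2 rose, with a median of 0.41. These were Acvrl1, an endothelial type I receptor, at 0.57 (edgeR adjusted p = 0.0101), and Eng, the endothelial co-receptor endoglin, at 0.46 (edgeR adjusted p = 0.00639).

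Of 15 genes of latent complex activation 5 rose and none fell, with a median of 0.32. The largest rises were those of the integrin subunit Itgb3 at 1.03, of Lrrc32, which holds latent TGF-beta at the cell surface, at 0.77, and of the integrin subunit Itgav at 0.42 (edgeR adjusted p = 0.0172, 0.00539 and 0.0402). Lrrc32 kept its call without each library in turn, whereas Itgb3 lost it without 3 of 6 libraries and Itgav without 4 of 6 and under 5 of 9 alternatives. The summed level of platelet markers, cells rich in Itgb3, was 15.8 to 23.1 CPM in AkCk and 10.3 to 15.1 CPM in Wt, with 1 of 4 called. The called marker was Pf4, at 0.91 (edgeR adjusted p = 0.0212). Ppbp, Itga2b and Gp9 overlapped with Wt. The part of platelets in the rise of Itgb3 was not tested. The count of 5 fell to 1 without Wt_37 or Wt_55, to 2 without AkCk_24 or AkCk_27, and was 7 without Wt_30. Of all genes tested, 3.35% passed without Wt_37, 3.95% without Wt_55, 4.95% without AkCk_24, 6.88% without AkCk_27 and 21.1% without Wt_30. Under the 9 alternatives the count in this list ran from 2 to 6, and the share of all genes from 4.3% to 16.7%. Of 8 matrix partners of the binders 5 rose, with a median of 0.61. They include Tgm2, which crosslinks latent binders into the matrix, at 1.37, the fibrillin Fbn1 at 0.93, and Fbln5, the elastic fibre partner of LTBP4, at 0.85 (edgeR adjusted p = 0.000919, 0.00145 and 0.00123). The count was 3 or 4 without each library in turn and 2 to 6 under the 9 alternatives, lowest with Xist as a covariate over all 12 libraries. With that covariate 6.21% of all genes tested passed.

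All 4 proteoglycans that bind TGF-beta rose, with a median of 1.24. Dcn (decorin) had a log2 fold change of 2.08, Fmod (fibromodulin) 1.27 and Aspn (asporin) 1.22 (edgeR adjusted p = 0.000919, 0.00307 and 0.00639), and the count of 4 held without each library in turn. Of 17 response genes 5 rose and none fell, with a median of 0.34. The largest rises were those of the collagens Col1a1 at 1.88, Col3a1 at 1.56 and Col1a2 at 1.54 (edgeR adjusted p = 0.000199, 0.000919 and 0.000431). The other 2 were the smooth muscle genes Acta2 and Tagln, and the count was 3 without Wt_55 and with all 12 libraries or 9 in the fit. Of all genes tested, 3.95%, 7.32% and 4.3% passed in these settings. The 12 remaining response genes did not pass, among them Ctgf at 0.34, Cdkn1a at 0.49 and Tgfbi at 0.06. Dcn, Fmod, Aspn, Tgm2 and the 3 collagens are among the genes the study listed from these same libraries, so their rise is not independent evidence. In AkCh against Wt, 0 genes of the 6 lists passed by edgeR. In AhCk against Wt, where 0.836% of all genes tested were called higher and genotype cannot be told apart from run, 1 gene rose in each of the lists of latent complex activation, matrix partners and response genes.

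**Figure D4:**
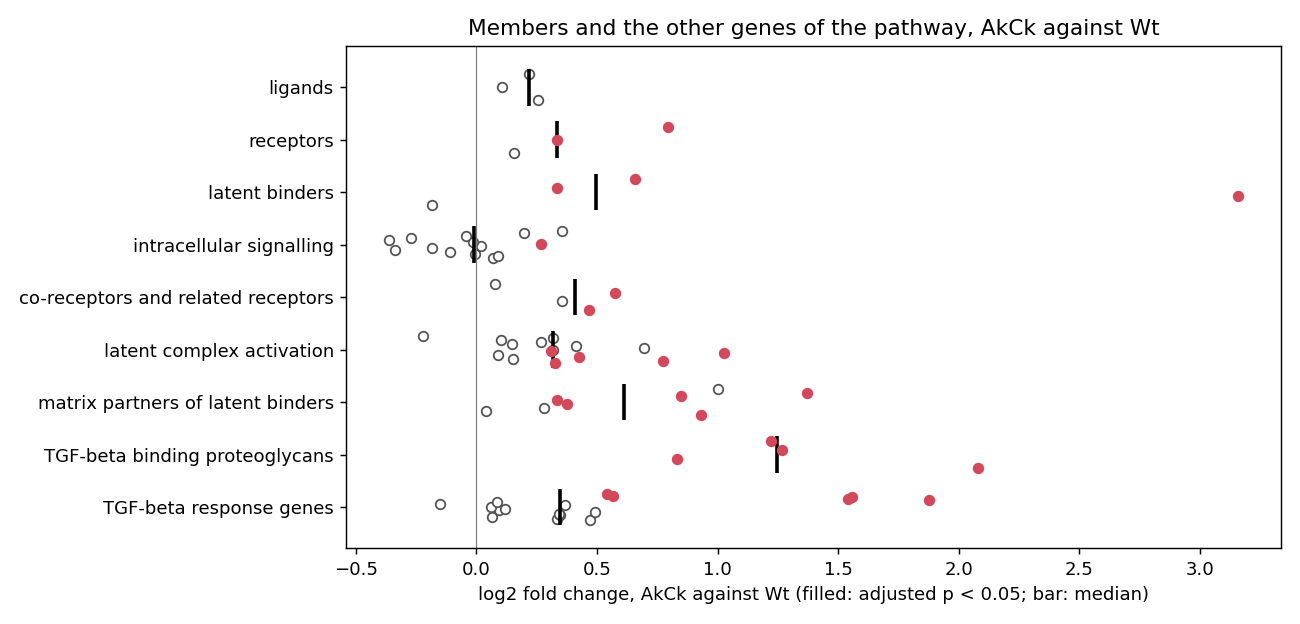
Each point is the log2 fold change of 1 gene in AkCk against Wt, by role, with filled points for an edgeR adjusted p below 0.05 and a black bar at the median of the list. The medians run from -0.01 for intracellular signalling to 1.24 for the proteoglycans, and Ltbp2 at 3.16 lies farthest to the right.

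Promoter windows are shown for 3 of the genes that rose in AkCk, namely those with a window free of annotated exon. Whether these genes share regulation was not tested. The windows are the 250 bases before a transcription start listed by RefSeq on GRCm38.p6, where 8 of the 10 genes have 12 such windows (Tgfb3 and Tgfbr3 have none in the table). The sequences run 5′ to 3′ on the strand of the gene, and capitals mark GC boxes (GGGCGG or CCGCCC) and SMAD core sites (GTCTG or CAGAC). The Ltbp4 window is chr7:27333664-27333913 on the minus strand, the Tgfbr2 window chr9:116175364-116175613 on the minus strand, and the Ltbp3 window chr19:5740650-5740899 on the plus strand.
Ltbp4: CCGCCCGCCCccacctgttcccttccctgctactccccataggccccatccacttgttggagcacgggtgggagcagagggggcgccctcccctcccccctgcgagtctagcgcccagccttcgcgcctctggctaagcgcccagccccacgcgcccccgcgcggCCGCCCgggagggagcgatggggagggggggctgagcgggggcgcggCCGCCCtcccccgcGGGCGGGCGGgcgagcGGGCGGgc
Tgfbr2: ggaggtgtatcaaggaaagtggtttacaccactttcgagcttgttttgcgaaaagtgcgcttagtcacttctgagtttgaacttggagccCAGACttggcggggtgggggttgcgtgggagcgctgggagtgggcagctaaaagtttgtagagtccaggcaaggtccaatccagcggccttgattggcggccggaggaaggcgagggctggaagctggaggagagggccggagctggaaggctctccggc
Ltbp3: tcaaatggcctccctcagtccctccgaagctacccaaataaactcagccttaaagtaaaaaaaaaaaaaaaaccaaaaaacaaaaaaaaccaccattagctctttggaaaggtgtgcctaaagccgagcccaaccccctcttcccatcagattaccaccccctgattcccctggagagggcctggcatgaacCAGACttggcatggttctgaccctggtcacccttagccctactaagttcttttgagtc

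The printed Ltbp4 window held 7 GC boxes, counting overlaps, in 79.2% GC, and the other 2 Ltbp4 windows held 5 in 79.2% GC and 3 in 64.4% GC. The window with 5 overlaps the printed one, and its 5 boxes are among the 7. All 3 Ltbp4 windows lie inside the span given for the gene, before internal starts. Of the Ltbp4 windows, the printed one alone holds no annotated exon. The Ltbp2 window, which is not printed, held 2 in 61.6% GC. The windows of Tgfbr2 and Ltbp3 held none, in 58.4% and 47.2% GC. Median GC content over all 32851 windows was 52.4%, and 32.7% of them held a GC box. GC boxes were not limited to the raised genes, since Tgfb1, which was not called, had 5. A SMAD core site was found 1 time each in the Tgfbr2 and Ltbp3 windows and 2 times in that of Ltbp2, but not in any of 3 Ltbp4 windows. All 250 bases of the Ltbp2 window are annotated as exon in GENCODE, so its motifs lie in transcribed sequence. Among the genes not called, the Tgfb2 window held 2 SMAD core sites, the 2 Ltbp1 windows 1 and 2, and 1 of 2 Tgfbr1 windows 1. At 42.2% of all windows this motif is common. The TATA box TATAAA, found in 12.4% of windows, was present only in the Tgfb2 window among the 12, and 167 bases of that window are annotated as exon. The letters TTTATG and TTTACG, typical of HOX9 to HOX11 sites, were in 10.8% and 2.61% of all windows on either strand and in none of the 12, which says only that they are absent from these stretches.

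Across the 9 libraries other than AhCk, which share a run, the genes most like each raised member were ranked by Pearson correlation of log2 CPM over 15751 genes. Among the 3 genes most like Ltbp2 were Fbxo32 (r = 0.988) and Tm4sf5 (0.975). Ltbp4 was most like Ehd4 (0.989), Pros1 (0.987) and Lrrn4 (0.986), and the 3 genes most like Ltbp3 included Upk3b (0.982) and Aebp1 (0.971). Tgfbr3 was most like Npr3 (0.980) and Tgfbr2 most like 2510039O18Rik (0.985). The points include 3 AkCk libraries that stand apart for these members, and the best of so many genes is high in any case, so these values are descriptions.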

How the data were processed

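Per the study's methods, the authors mapped paired TruSeq reads of 75 bases to mm10, dropped reads with more than 1 position in the genome and used Strand NGS. They deposited expected counts per gene for 36186 genes in 12 libraries, in which 40.9% of values carry fractions, and a table of normalized log2 values centred on the median of each gene. The members and gene lists were chosen with earlier results of these data known. The expected counts, rounded to whole numbers, went into edgeR 4.0.16 (R 4.3.3). filterByExpr removed low genes (minimum count 10, minimum total 15) and TMM set library sizes. Each fit held the 6 libraries compared and used the quasi-likelihood test, and p-values were adjusted by Benjamini-Hochberg across all tested genes, with a threshold of 0.05. The study used the Audic-Claverie test, which has no term for the spread between replicates. CPM was set on 1 scale over all 12 libraries, and CPM per kb used the longest GENCODE vM21 transcript. At this depth 3 counts, used as the floor, correspond to 0.0637 to 0.105 CPM, for counting error only. Library preparation is not stated to keep strand, so reads of overlapping antisense genes cannot be told apart.

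Genes named are the 10 members, and for each pathway list up to 3 largest rises and falls past the threshold in AkCk against Wt. Values of Ctgf, Cdkn1a, Tgfbi, Tgif1, Smad7 and Smurf1, which did not pass, and the names Acta2 and Tagln were chosen after they were seen. Some genes that the rule or the marker lists include are not reported here. As alternatives, the factors were set by RLE or by library size alone, DESeq2 1.42.0 replaced edgeR, the filter was lowered to at least 1 count, the fit held all 12 libraries or the 9 of 1 run, and limma 3.58.1 was run on the deposited log2 values. Xist was added as a covariate, counts were corrected in each library for GC content and length in 20 bins of genes, and each library was left out in turn. Likeness used log2 of CPM plus 0.5. The steps were tested on simulated data. Positions and promoter windows are from RefSeq of GRCm38.p6, which matched 33006 genes, and GENCODE models matched 32234. Figures used matplotlib 3.10.9.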

Additional observations from a re-analysis of the deposited data

How the results depend on the processing

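In AkCk against Wt the direction of each of the 10 genes held under all 9 alternatives and with each library left out. Ltbp2 kept its call under all 9 (log2 fold change 3.09 to 3.18), Ltbp4 under 8, Tgfbr3 under 7, Tgfbr2 under 5 and Ltbp3 under 4. Over the 4 comparisons, 313 of 350 values under the alternatives kept direction and side of the threshold, 16 lost it, 10 passed it and 11 changed sign. Of 240 values with a library left out, 208 kept both, 18 lost the threshold, 2 passed it and 12 changed sign. The cause of these changes was not tested. No paired analysis was possible because the groups share no replicate numbers.

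Of the 10 genes, 3 passed in AkCk against Wt with library size only, 3 with limma, 2 with the 9 libraries of 1 run and 4 with all 12. The Xist covariate was fitted with all 12 libraries throughout, so it changes both choices, and 1 gene passed with it. The count was 1 to 5 with a library left out. In AhCk against Wt, 0 passed with all 12 libraries, limma, the Xist covariate or the GC correction, and 0 to 1 with a library left out. In AkCk against AkCh, 3 passed with DESeq2, all 12 libraries or the Xist covariate, 1 with the 9 libraries, and 0 to 1 with a library left out. The percentage of genes that passed, among those each setting tested, moved too. In AkCk against Wt it was 13.7% (999 higher, 1172 lower), and 16.7% with DESeq2, 7.32% with all 12 libraries, 4.3% with 9, 7.67% with limma, 6.21% with the Xist covariate and 3.35% to 21.1% with a library left out (lowest without Wt_37, highest without Wt_30). The split became 742 higher and 1649 lower with library size only and 1957 and 1429 without Wt_30. In AkCh against Wt it was 0% by the main test, 0.0922% with DESeq2, 0.0123% with all 12, 0.00633% with limma and 0% to 0.0501% with a library left out. In AhCk against Wt the 2.36% became 6.41%, 0.916%, 0.994%, 0.824% and 0.723% with DESeq2, all 12 libraries, limma, the Xist covariate and the GC correction, and 0.373% to 3.39% with a library left out. In AkCk against AkCh the 0% became 2.49%, 0.00511%, 3.32%, 1.13%, 0.00634%, 4% and 0.0127% with DESeq2, all genes with at least 1 count, all 12 libraries, 9 libraries, limma, the Xist covariate and the GC correction, and 0% to 4.3% with a library left out (without AkCh_20).

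Some log2 fold changes changed sign. In AkCh against Wt, library size only gave Tgfb1 -0.0646, Tgfbr2 -0.0201 and Tgfbr3 -0.0181, limma gave Tgfbr3 -0.0007, and the Xist covariate gave Tgfbr1 -0.0204 and Tgfbr3 -0.12. With a library left out, Tgfb1 ran from -0.0591 to 0.0781, Tgfb3 from -0.13 to 0.42, Tgfbr3 from -0.12 to 0.26 and Ltbp1 from -0.25 to 0.0428. In AhCk against Wt the GC correction gave Tgfbr2 -0.11 and Ltbp3 -0.0003, and Tgfb1 ran from -0.0036 to 0.14 with a library left out. In AkCk against AkCh, Tgfb3 was -0.0074 with all 12 libraries, -0.0084 with 9 and -0.0802 with the GC correction. With a library left out it ran from -0.19 to 0.37, Tgfbr1 from -0.0047 to 0.16 and Ltbp1 from -0.22 to 0.0875. Depth limits Ltbp2 most, whose Wt level rests on 24.5 to 52 counts a library.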
